A study of Mus musculus with 12 samples.

Results

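The markers described here are 9 genes that tell the subtypes of spiral ganglion neurons (SGNs) apart: Calb1, Calb2, Pvalb, Rxrg, Lypd1, Runx1, Pou4f1, Prph and Th. Every probe set of the mouse arrays whose gene symbol was exactly one of these names was taken, which gave 22 of the 45037 probe sets tested, and the 9 genes are 9 of 18193 genes measured. Auditory nerve was collected from adult CBA/CaJ mice of both sexes, 8 to 12 weeks old and of no other named genotype, in 4 groups with 3 arrays each. The ouabain groups were right ears, taken 3 or 7 days after 3 mM ouabain had been laid on the round window niche for about 60 min. The control groups were the left ears, left unoperated and collected on the same days, so each control nerve came from a mouse whose other ear had been injured. Mice whose auditory brainstem response showed too small a loss after ouabain were excluded by the study. A pool of 2 modiolus preparations made up each sample. Since no source names the animals of a pool, p-values cover the spread between pools only.

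SGNs carry sound information from hair cells to the brainstem. Type I neurons, the myelinated majority, contact inner hair cells and are divided by single-cell studies into Ia, Ib and Ic, which differ in their thresholds and spontaneous activity. Calb2 and Rxrg mark mainly Ia neurons, Calb1 mainly Ib, and Lypd1, Runx1 and Pou4f1 mainly Ic, while Pvalb is made by type I neurons broadly. The few type II neurons are unmyelinated, contact outer hair cells and contain Prph and Th. Ouabain blocks the sodium-potassium pump, and at the round window it is used to kill type I neurons while sparing hair cells.

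Values are the deposited RMA log2 expression values, so a difference of 1 is a 2-fold change of signal, and levels of different probe sets cannot be set against each other. For each gene with several probe sets, the one of highest mean signal over all arrays is given first. A gene was called when its Benjamini-Hochberg adjusted p in limma, over all probe sets, was under 0.05 and its fold change was above 1.5. Array medians lay between 6.01 and 6.09, and the 12 arrays were alike in the share of probe sets above 6, between 50.1% and 51.2%. Of a reference list of 19 general neuronal genes, 18 were lower after ouabain at both days, all but Syt1 (-0.32 at 3 days and -1.18 at 7 days), and the median level of the list stood at 36.5%, 15.3% and 14.1% of control in the 3-day ouabain arrays and at 17.5%, 9.84% and 8.01% in the 7-day ouabain arrays. The ouabain array numbered 1 thus retained the most neuronal RNA at each day. In whole nerve, fewer cells of a type and less RNA per cell cannot be told apart.

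At 3 days, 5 of the 9 markers fell after ouabain (Calb2, Pvalb, Rxrg, Lypd1 and Pou4f1), 1 rose (Prph), and Calb1, Runx1 and Th did not pass. Among all genes, 8.06% were called lower and 7.51% higher in that comparison. At 7 days, 6 markers fell, Calb1 having joined the others, 2 rose (Prph and Runx1), and Th did not pass, against 8.2% of all genes lower and 7.57% higher. The median log2 fold change of the 9 markers was -1.79 at 3 days and -3.08 at 7 days, against 0.01 and 0.03 over all genes. The 3 ouabain arrays and the 3 control arrays did not overlap for 6 of the 9 markers at 3 days and for 8 at 7 days, where 21.2% (lower) and 22.4% (higher) of all genes did not overlap at 3 days, and 20.6% and 25.6% at 7 days. Under the unpaired test the study's methods name, with adjusted p-values, the calls of Pou4f1 at 3 days (adjusted p = 0.135) and of Calb1 (0.148), Pou4f1 (0.0621), Runx1 (0.0877) and Prph (0.0686) at 7 days were lost. Without both ouabain arrays numbered 1, a choice made after seeing the data, the same counts were found, 5 lower and 1 higher at 3 days and 6 lower and 2 higher at 7 days.

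**Figure D1:**
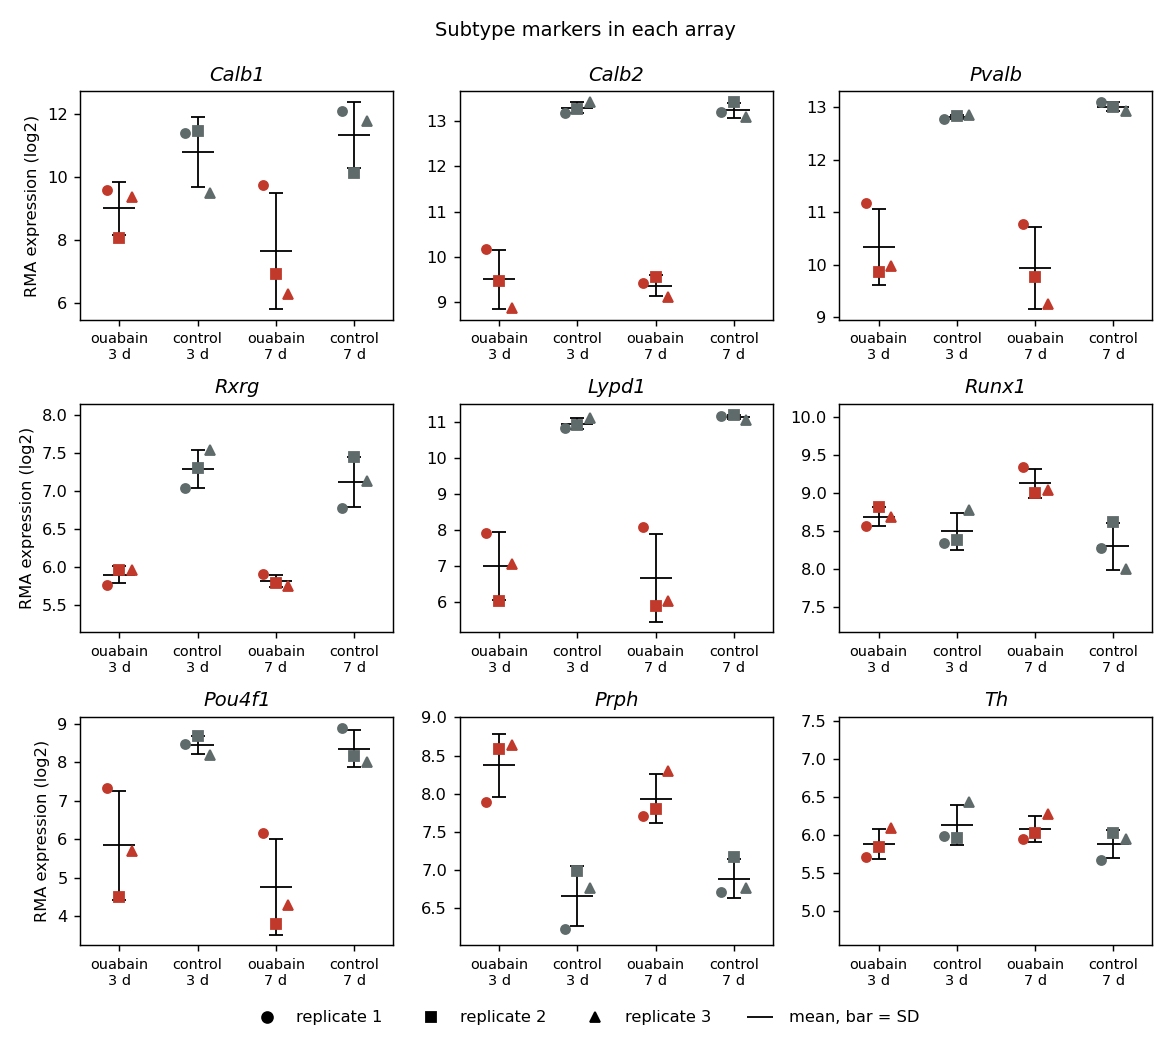
RMA log2 expression of the brightest probe set of each marker on every array, with ouabain arrays in red and control arrays in grey, marker shape for the replicate number, and the group mean with its SD. Each panel has its own range of at least 3 log2 units. Calb2, Pvalb, Rxrg, Lypd1 and Pou4f1 lie below control in every ouabain array of both days, Prph lies above control, and Th overlaps control at both days.

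Calb2, Pvalb and Calb1 encode calcium-binding proteins, with Calb2 that of calretinin. Its level was 10.18, 9.47 and 8.87 in the 3-day ouabain arrays, against 13.19, 13.26 and 13.42 in the 3-day controls. At 7 days it was 9.42, 9.57 and 9.12 in ouabain arrays and 13.20, 13.41 and 13.09 in controls. The groups stood at least 3 log2 units apart at both days, and all 6 control arrays lay within 0.34 of each other. Calb2 fell by 3.78 (SE 0.25) at 3 days and fell by 3.86 (SE 0.25) at 7 days on the log2 scale, with adjusted p = 1.07e-06 and 9.90e-07. What remained was 7.26% of control at 3 days (95% interval 4.96 to 10.6) and 6.86% at 7 days (4.69 to 10.0).

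Pvalb, which encodes parvalbumin, a calcium buffer of fast-firing neurons, also held steady among untreated ears. It was at 11.17, 9.86 and 9.97 in 3-day ouabain arrays, against 12.78, 12.82 and 12.85 in controls. On day 7 Pvalb was at 10.78, 9.77 and 9.24 in ouabain arrays, against 13.10, 13.01 and 12.92 in controls. The ouabain array numbered 1 was the highest of its group both times, as for the neuronal list, and still lay below every control. Pvalb fell by 2.48 (SE 0.36) at 3 days and fell by 3.08 (SE 0.36) at 7 days, with adjusted p = 0.000322 and 6.52e-05, so that 17.9% of control remained at 3 days (10.3 to 31.1) and 11.8% at 7 days (6.82 to 20.6).

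Calb1, which encodes the calcium buffer calbindin, varied more than the other 8 markers among untreated ears. It was at 9.60, 8.05 and 9.37 in 3-day ouabain arrays, against 11.41, 11.47 and 9.50 in controls. On day 7 Calb1 was at 9.75, 6.91 and 6.27 in ouabain arrays, against 12.10, 10.13 and 11.78 in controls. The third 3-day control and the second 7-day control were low, and the first of these lay below one of the 3-day ouabain arrays. The 6 control arrays spanned 2.60 log2 units, or 6.08-fold, a range larger than that of 99.3% of the 12323 genes with a mean above 6. The change at 3 days of -1.79 (SE 0.86) did not pass (adjusted p = 0.177), while at 7 days Calb1 fell by 3.69 (SE 0.86, adjusted p = 0.00727). What remained was poorly fixed, 29.0% at 3 days (7.93 to 106) and 7.73% at 7 days (2.11 to 28.3), and by array it was 33.3%, 4.65% and 2.98% at 7 days. Without the first 7-day ouabain array the change was -4.75, and without the third it was -3.01, both still called.

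Of the other Calb1 probe sets, 1448738_at and 1456934_at gave -1.37 (SE 0.79) and -1.22 (SE 0.76) at 3 days and were called lower at 7 days, by -3.06 and -2.39. They were also low in the same pair of control arrays, at 3.91 and 4.56 in the third 3-day control and at 5.27 and 5.20 in the second 7-day control, against 6.48 to 7.91 in the other 4 controls. The fourth probe set, 1458836_at, stayed between 3.34 and 3.95 in all 12 arrays, near the bottom of each array, and did not pass at either day.

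Lypd1 and Pou4f1, both markers of Ic neurons, were lost deeply but unevenly between ouabain arrays. Lypd1 encodes a membrane-anchored protein of the Ly6 family that binds nicotinic receptors. It was at 7.93, 6.03 and 7.07 in 3-day ouabain arrays, against 10.82, 10.91 and 11.11 in controls. Lypd1 at 7 days was at 8.07, 5.90 and 6.05 in ouabain arrays, against 11.15, 11.18 and 11.06 in controls. Controls were tight and ouabain arrays spread over about 2 log2 units, again with array 1 on top. Lypd1 fell by 3.94 (SE 0.52) at 3 days and fell by 4.46 (SE 0.52) at 7 days, with adjusted p = 0.000155 and 6.21e-05. Of control, 6.53% remained at 3 days (2.95 to 14.4) and 4.56% at 7 days (2.06 to 10.1), and its second probe set, 1442887_at, gave -3.41 and -3.51, both called. Without both ouabain arrays numbered 1 the changes were -4.40 at 3 days and -5.16 at 7 days.

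Pou4f1 encodes Brn3a, a POU-domain transcription factor of sensory neurons. It was at 7.32, 4.51 and 5.69 in 3-day ouabain arrays, against 8.47, 8.67 and 8.20 in controls. Pou4f1 at 7 days was at 6.17, 3.81 and 4.29 in ouabain arrays, against 8.90, 8.16 and 8.00 in controls. By array, 45.8%, 6.51% and 14.8% of control remained at 3 days, and 21.9%, 4.28% and 5.99% at 7 days, so the ouabain arrays of one day differed from each other several fold. Pou4f1 fell by 2.61 (SE 0.66, adjusted p = 0.0119) at 3 days and fell by 3.60 (SE 0.66, adjusted p = 0.00164) at 7 days, and 1429668_at, its second probe set, gave -3.07 and -4.12, both called. At 3 days the call was lost without the second ouabain array (-1.94, adjusted p = 0.0533), and without both ouabain arrays numbered 1 the changes were -3.35 at 3 days and -4.30 at 7 days.

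Runx1, a Runt-domain transcription factor that is also made by blood and immune cells, took a different course from the other Ic markers. It was at 8.57, 8.82 and 8.69 in 3-day ouabain arrays, against 8.34, 8.38 and 8.78 in controls. Runx1 at 7 days was at 9.35, 8.999 and 9.04 in ouabain arrays, against 8.28, 8.63 and 8.01 in controls. The groups overlapped at 3 days (0.19, SE 0.16, adjusted p = 0.497) and stood apart at 7 days, when Runx1 rose by 0.82 (SE 0.16, adjusted p = 0.00287) to 177% of control (138 to 227). Its other 5 probe sets gave changes between -0.33 and 0.06 at 3 days and between 0.04 and 0.46 at 7 days, and none passed, the lowest adjusted p being 0.0710. With the 6 probe sets averaged, the 7-day change of 0.34 was below 1.5-fold.

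Macrophage markers were high in the same arrays. All 10 genes of that list rose at 3 days and 9 of 10 at 7 days, among them Cd68, a lysosomal protein of phagocytes, by 3.08 (SE 0.20) and 2.33 (SE 0.20), and C1qb, a complement subunit made by macrophages, by 2.07 (SE 0.24) and 2.31 (SE 0.24). Their summed level was between 13.81 and 14.09 on the log2 scale in 3-day ouabain arrays, against 12.10 to 12.48 in controls, and between 14.06 and 14.14 in 7-day ouabain arrays, against 12.31 to 12.53 in controls. The part of these cells in the level of Runx1 was not tested. Of 11 measured markers of marrow and lymphoid cells, 0 passed in limma at either day, and 0 had an unadjusted p under 0.05. These markers varied widely between pools. Their summed level was between 11.94 and 14.66 in 7-day controls and between 12.42 and 13.53 in 7-day ouabain arrays, so a change could have been missed.

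Rxrg, which encodes the retinoid X receptor gamma, a nuclear receptor, is the other Ia marker, and its signal lay below the array median after ouabain. It was at 5.77, 5.97 and 5.97 in 3-day ouabain arrays, against 7.04, 7.30 and 7.54 in controls. Rxrg at 7 days was at 5.91, 5.80 and 5.76 in ouabain arrays, against 6.78, 7.45 and 7.14 in controls. All 6 ouabain arrays lay within about 0.2 of each other and below the median of their own array, without the high value of array 1 seen for Pvalb, Lypd1 and Pou4f1. Rxrg fell by 1.39 (SE 0.16, adjusted p = 5.37e-05) at 3 days and fell by 1.30 (SE 0.16, adjusted p = 8.76e-05) at 7 days, leaving 38.1% (29.9 to 48.6) and 40.5% (31.8 to 51.7) of control. RMA values do not reach 0 for a gene that is not expressed, so a share computed at such a level may lie above the share of transcript that was left.

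Neither type II marker was called lower. Prph encodes peripherin, an intermediate filament of peripheral and unmyelinated axons. It was at 7.89, 8.58 and 8.64 in 3-day ouabain arrays, against 6.22, 6.98 and 6.76 in controls. Prph at 7 days was at 7.70, 7.79 and 8.30 in ouabain arrays, against 6.71, 7.17 and 6.76 in controls. The lowest ouabain array lay above the highest control at both days, and the ouabain array numbered 1 was the lowest of its group at each day, the reverse of its place for Pvalb, Lypd1 and Pou4f1. Prph rose by 1.72 (SE 0.24, adjusted p = 0.000251) at 3 days and by 1.05 (SE 0.24, adjusted p = 0.00743) at 7 days, to 328% (227 to 475) and 207% (143 to 299) of control.

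These values rest on 1 probe set, 1422530_at. The other 3, 1420256_x_at, 1449796_at and 1449797_x_at, stayed between 5.30 and 6.25 in all arrays, with changes between -0.18 and 0.05 at the 2 days, and the annotation ties none of them to a Prph transcript while it does so for 1422530_at. The suffix _x_at marks probe sets that share probes with other sequences. Averaged over its 4 probe sets, Prph changed by 0.43 at 3 days, below the fold threshold, and by 0.19 at 7 days (adjusted p = 0.162).

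Part of a list of axon injury response genes was raised in the arrays where Prph was raised. Of 7 such genes, 4 rose at 3 days and 3 at 7 days, among them Atf3, an injury-induced transcription factor, by 4.42 (SE 0.12) and 4.48 (SE 0.12), Gap43, a growth cone protein, by 3.53 (SE 0.37) and 3.74 (SE 0.37), and Jun, a component of AP-1, by 1.37 (SE 0.14) and 1.25 (SE 0.14). The median over the list in 3-day ouabain arrays was 0.21 to 0.96 from the control mean, against -0.07 to 0.10 in controls, and in 7-day ouabain arrays 0.22 to 0.56, against -0.15 to 0.06. Gal, Sox11 and Adcyap1 did not pass at either day, with changes of 0.18, -0.23 and -0.03 at 3 days and 0.15, -0.03 and -0.17 at 7 days. Which cells made the raised genes was not tested, nor was the part of these genes in the change of Prph.

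Th encodes tyrosine hydroxylase, the rate-limiting enzyme of catecholamine synthesis, and has 1 probe set. It was at 5.71, 5.85 and 6.10 in 3-day ouabain arrays, against 5.99, 5.97 and 6.43 in controls. At 7 days it was at 5.95, 6.03 and 6.28 in ouabain arrays, against 5.67, 6.03 and 5.95 in controls. The groups overlapped at both days, and every value lay near the median of its array, where a level does not show that a gene is expressed. The changes were -0.24 (SE 0.15, adjusted p = 0.329) at 3 days and 0.20 (SE 0.15, adjusted p = 0.400) at 7 days, with 95% intervals of 67.1 to 107% and 91.1 to 145% of control. A probe set at such a level in controls may stay near its control value even when transcript is lost, so these shares were not read as what remained. Th is also made by sympathetic fibres. Of 7 measured sympathetic genes, Ddc, the decarboxylase after tyrosine hydroxylase, rose at 3 days by 1.71 (SE 0.25), 0 passed in limma at 7 days (0 at an unadjusted p under 0.05), and Dbh, which defines noradrenergic cells, was at 7.40 to 7.50 in 3-day ouabain arrays, against 7.26 to 7.53 in controls. Slc18a2, Phox2a and Hand2 of this list were below the array median, with 3-day control means of 3.94, 5.13 and 5.50. The Dbh values come from an _x_at probe set. The lack of calls thus does not show that sympathetic fibres were unchanged.

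**Figure D2:**
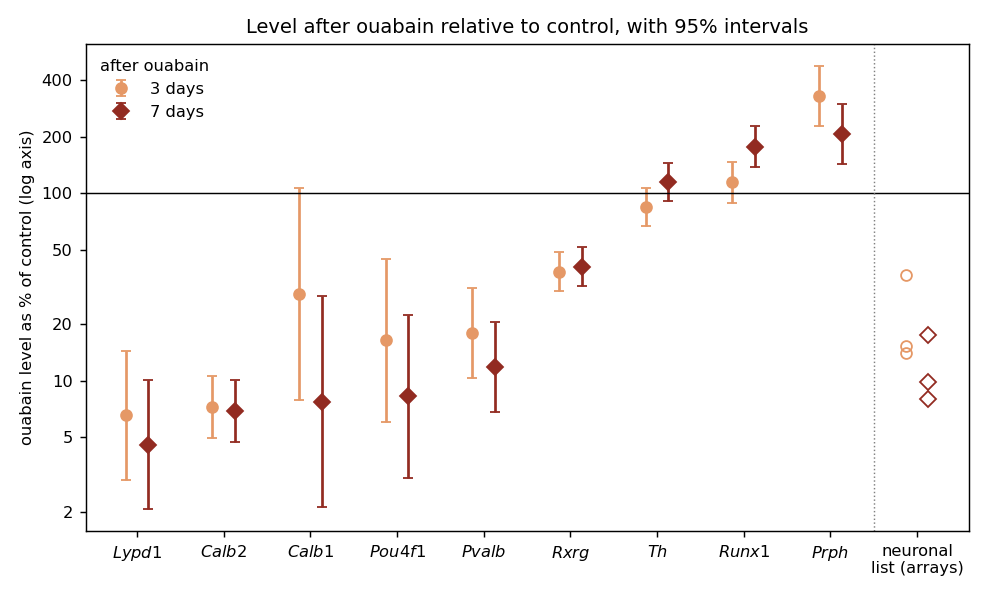
Level of each marker after ouabain as a percentage of control on a log axis, at 3 days (circles) and 7 days (diamonds), with 95% intervals from the fit of 12 arrays. Open symbols give the median of the 19 neuronal genes on each ouabain array. Lypd1, Calb2, Calb1, Pou4f1 and Pvalb overlap one another at 7 days between 2.06% and 28.3%, the 7-day interval of Rxrg is 31.8 to 51.7% at a signal below the array median, that of Th spans 100% at a signal near the array median in all groups, and those of Runx1 and Prph lie above 100%.

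Ordered by what remained at 7 days, the markers ran from Lypd1 (4.56%) through Calb2 (6.86%), Calb1 (7.73%), Pou4f1 (8.25%) and Pvalb (11.8%) to Rxrg (40.5%), Th (115%), Runx1 (177%) and Prph (207%). The intervals of the first 5 overlapped one another, so their order is not fixed by these arrays. Ouabain arrays of Lypd1 and Pou4f1 also reached the array median or lower, so their shares left may be lower too. The interval of Rxrg was 31.8 to 51.7%, but its place is not fixed either, since its signal in ouabain arrays was below the array median and the share left may be lower. The share of Th was not read as what remained, since its signal was near the array median in controls too. Those of Th, Runx1 and Prph overlapped from each to the next. At 3 days the order of the first 6 differed, with Calb1 at 29.0% and the widest interval.

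Whether a marker changed between 3 and 7 days was tested as the difference of the 2 responses. None of the 9 markers passed (lowest adjusted p = 0.266, in limma), against 1.24% of all genes, and only Runx1, with a difference of 0.63 (SE 0.23), had an unadjusted p under 0.05. The difference was -1.91 for Calb1 (95% interval -4.55 to 0.74), -0.99 for Pou4f1 (-3.03 to 1.04), -0.60 for Pvalb (-1.72 to 0.53), -0.52 for Lypd1 (-2.14 to 1.10) and -0.67 for Prph (-1.42 to 0.09). For Calb2 it was -0.08 (-0.86 to 0.70) for Rxrg 0.09 (-0.41 to 0.58) and for Th 0.44 (-0.03 to 0.91). Further loss of 1 log2 unit of signal was thus within the interval for Calb1, Pou4f1, Pvalb and Lypd1, and outside it for Calb2 and Rxrg. The signal of Rxrg was below the array median in ouabain arrays, so its interval may not limit further loss of transcript. Controls at 7 days against controls at 3 days gave no call among the 9 markers by limma (lowest adjusted p = 0.806, 0 with an unadjusted p under 0.05, and 0.0165% of all genes called), with changes between -0.24 and 0.55.

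To ask whether a marker was retained more or less than general neuronal RNA, each was set against the median of the 19 neuronal genes on the same array. Exchanging labels within each day gave an exact two-sided permutation test with 400 relabellings, in which 0.005 is the smallest p. It was run for each of the 9 markers, and an unadjusted p under 0.05 was taken as passing. The share of all genes that would pass was not computed. The median change over all genes was 0.01 at 3 days and 0.03 at 7 days, so a gene without change lies above the fallen list. Th stood near the array median in controls as well, and Rxrg was below it in every ouabain array. The signal of both may have had little room to fall, and their difference from a falling list was not read as retention. Ouabain minus control relative to the list was -1.08 log2 units for Calb2 (exact p = 0.005) and -1.45 for Lypd1 (exact p = 0.005), and both lay below the controls of their day in all 6 ouabain arrays. The list itself was spread. Its deepest change at 3 days was -3.44 (Syt2), against -3.78 for Calb2 and -3.94 for Lypd1. At 7 days Syt2 (-4.43), Rbfox3 (-4.13), Ina (-4.02) and Thy1 (-3.90) lay between Lypd1 (-4.46) and Calb2 (-3.86). The test sets a marker against the median of the list, and does not show that it is unusual among neuronal genes. Relative to the list, Pvalb at -0.04 (exact p = 0.655) and Pou4f1 at -0.36 (exact p = 0.330) did not pass. The signal of Pou4f1 was below the array median in all ouabain arrays but those numbered 1, so its fall may be understated. Without both ouabain arrays numbered 1, a choice made after seeing the data, Pou4f1 was at -0.70 (exact p = 0.05). Calb1 did not pass either (exact p = 0.985), and its mean of 0.00 averaged 0.54 at 3 days and -0.53 at 7 days, with ouabain arrays between -1.42 and 1.40. Runx1 was higher by 3.25 and Prph by 4.13, both with exact p = 0.005 and above every control array of their day. A gene that does not fall lies above a falling list whatever cells make it, so neither difference was read as retention. The values were 1.40 for Rxrg (exact p = 0.015) and 2.72 for Th (exact p = 0.005), with the limit of low signal given above. In the 3-day ouabain array numbered 1, Rxrg was at -0.07 relative to the list, inside the range of the controls.

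The values of Calb2 relative to the list were -1.65, -1.12 and -1.60 in 3-day ouabain arrays, against -0.07, 0.01 and 0.07 in controls. At 7 days they were -1.30, -0.32 and -0.47 in ouabain arrays, against -0.22, 0.24 and -0.01 in controls. Calb2 was thus set furthest below the list at 3 days and in the first 7-day array. For Lypd1 they were -1.56, -2.21 and -1.05 in 3-day ouabain arrays, against -0.09, 0.00 and 0.10 in controls, and -0.54, -1.89 and -1.44 in 7-day ouabain arrays, against -0.17, 0.12 and 0.07 in controls. Pvalb stayed within 0.28 of the list in all 12 arrays. With all probe sets of each gene averaged, Pvalb also passed (-0.21, exact permutation p = 0.025).

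**Figure D3:**
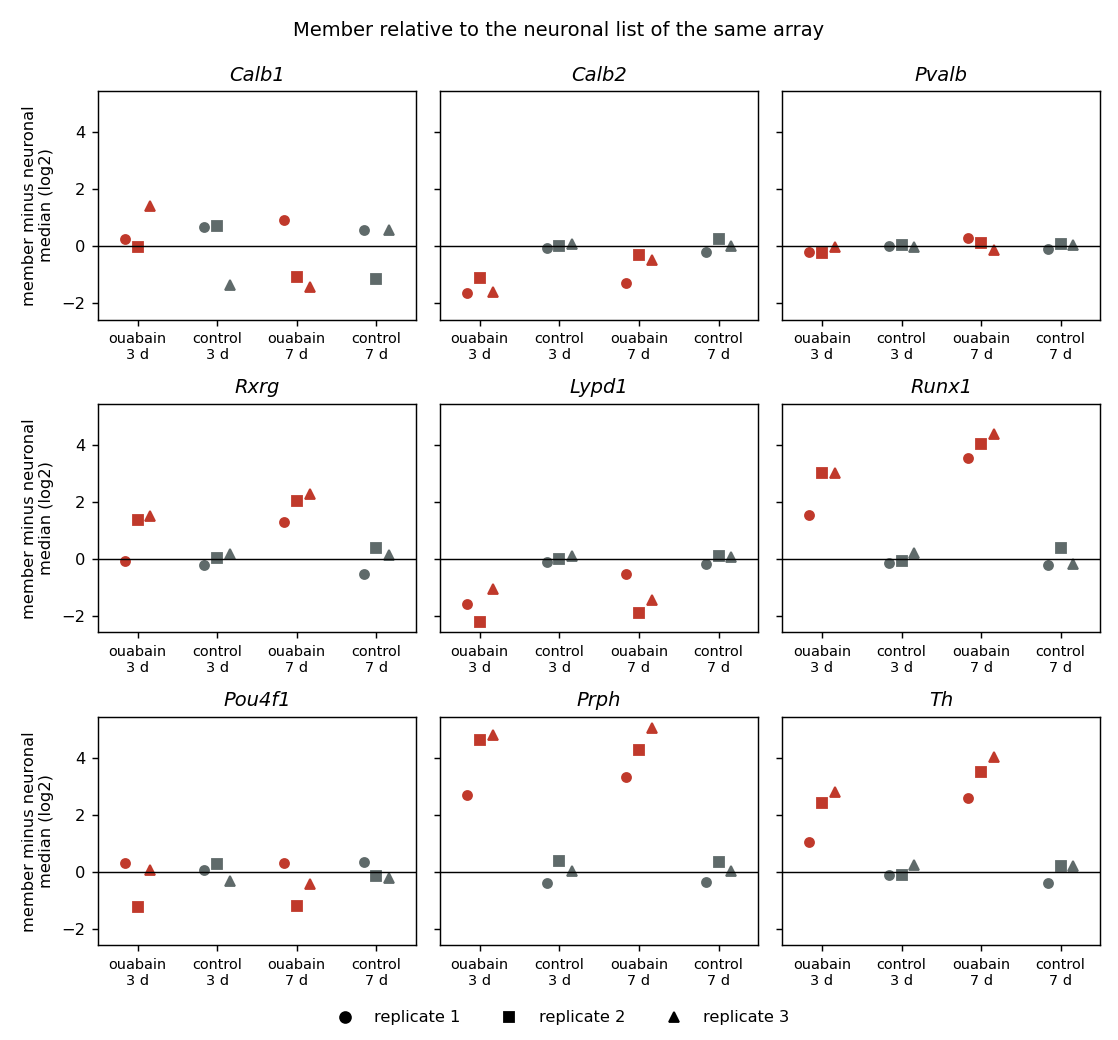
Log2 value of each marker minus the median of 19 neuronal genes on the same array, each first centred on the controls of its day, with ouabain arrays in red, control arrays in grey and marker shape for the replicate number. Points at 0 moved with the neuronal list. Calb2 and Lypd1 lie below 0 in all 6 ouabain arrays, Pvalb lies within 0.28 of 0, and Prph, Runx1 and Th lie between 1.04 and 5.06 above 0 in ouabain arrays, Th at a signal near the array median in all groups.

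At the level of probe sets, 7 of the 22 were called lower, 1 higher and 14 not at 3 days, where 6.58% of all probe sets were lower and 5.71% higher. At 7 days, 10 were lower, 2 higher and 10 not, against 6.51% and 6.14%. The probe sets of Lypd1 and of Pou4f1 agreed in call and direction, 3 of the 4 of Calb1 did so at 7 days, and those of Runx1 and Prph did not. Calb2, Pvalb, Rxrg and Th have 1 probe set each and no second measurement.

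**Figure D4:**
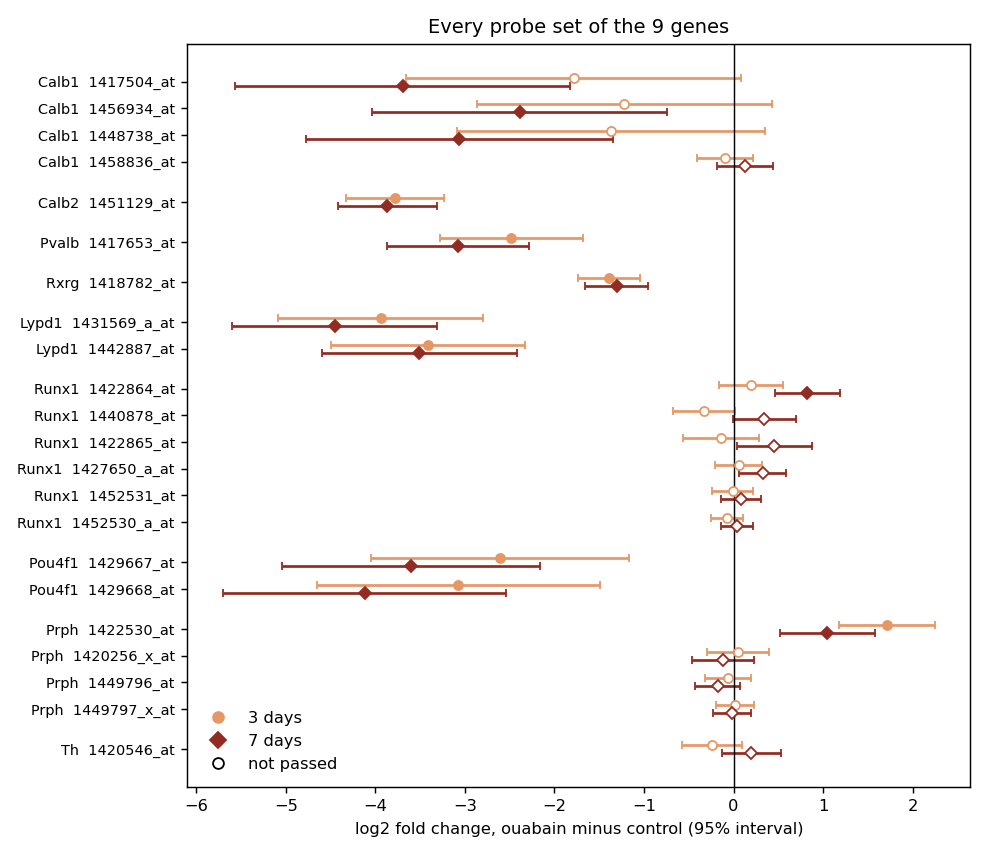
Log2 fold change of ouabain minus control for each of the 22 probe sets, with 95% intervals, at 3 days (circles) and 7 days (diamonds), brightest probe set first within a gene. Filled symbols passed the adjusted p and fold thresholds. Both sets of Lypd1 and of Pou4f1 lie between -4.46 and -2.61, whereas 1 of 4 sets of Prph and 1 of 6 of Runx1 passed at 7 days.

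A further list of subtype genes named in such studies held 7 measured members. Of these, 3 were lower and 1 higher at 3 days, and 2 were lower and 1 higher at 7 days. The list's median change was -0.43 log2 units at 3 days and -0.23 at 7 days. Grm8, a metabotropic glutamate receptor, was at 4.80, 4.12 and 3.91 in 3-day ouabain arrays, against 6.67, 6.98 and 6.90 in controls, and fell by 2.57 (SE 0.19) at 3 days and fell by 2.62 (SE 0.19) at 7 days. Trim54, a microtubule-associated protein, changed by -1.44 (SE 0.26) and -2.01 (SE 0.26), both called lower, and Pcdh20, a protocadherin, fell by 1.42 (SE 0.43) at 3 days and did not pass at 7 days (-0.93, SE 0.43, adjusted p = 0.148). Ngfr, the p75 neurotrophin receptor, which marks type II neurons and is also made by Schwann cells without axon contact, rose by 2.35 (SE 0.18) and 2.17 (SE 0.18), and was at 11.40, 11.59 and 12.02 in 3-day ouabain arrays, against 9.37, 9.19 and 9.40 in controls. Gata3, a transcription factor kept by type II neurons, did not pass, with changes of -0.27 (SE 0.17) and 0.33 (SE 0.17). The cells that make Gata3 were not told apart in whole nerve, so the lack of a call does not show that type II neurons were kept.

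Auditory nerve holds SGN bodies and axons with their Schwann cells. The summed level of the 19 neuronal genes was between 16.15 and 16.19 in 3-day controls, and Mbp, a myelin protein, stood between 13.62 and 13.92 in all 12 arrays, far above the array medians. Of 5 measured Schwann cell genes, Erbb3, a neuregulin receptor, rose by 1.26 (SE 0.10) at 3 days and 1.22 (SE 0.10) at 7 days, Sox10 rose at 7 days, and Pmp22, a myelin protein, fell at 7 days by 0.93 (SE 0.08). Calb1, Calb2 and Pvalb are also made in hair cells, and 0 of 7 hair cell genes passed in limma at either day, with 0 at an unadjusted p under 0.05. Their summed level was between 9.34 and 10.43 in 3-day ouabain arrays, against 9.74 to 10.39 in controls, and between 9.61 and 9.93 in 7-day ouabain arrays, against 9.59 to 10.10 in controls. Slc26a5, Pou4f3 and Tmc1 of this list were below the array median, with 3-day control means of 4.03, 5.17 and 4.99. The study's dissection also removed most of the sensory epithelium. The lack of calls thus does not show that hair cells were unchanged. Of 6 supporting cell genes Otoa rose at 7 days by 0.78 (SE 0.15), and of 6 genes of central glia, whose tissue can reach into the nerve, 2 rose at 3 days and 3 at 7 days, led by Olig1 with 1.24 (SE 0.29) and 1.33 (SE 0.29). In limma 0 of 8 skeletal muscle genes passed, with 1 at an unadjusted p under 0.05 at 3 days and 2 at 7 days, and 0 of 4 osteoblast genes, with 0 and 2. Of the muscle genes, Acta1 missed the call on its fold change only (0.31 and 0.27, limma adjusted p = 0.0227 and 0.0424). Acta1, Ckm, Myh1, Myh4, Tnnt3 and Tnnc2 lay below the array median in all 12 arrays, so a change in muscle could have been missed.

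For each called marker, the 3 genes closest to it over the 12 arrays were found by the mean absolute difference after centring, among 12322 genes with a mean above 6. Pvalb was followed most closely by Scg5, a secretory granule chaperone, at 0.13 log2 units, then by Bcl11a and Cacna2d3. Calb2 was nearest to Cdh9 (0.20), Hapln4 (0.23) and Grm7 (0.24), and Lypd1 to Kcnip1 (0.30), Resp18 (0.31) and Hapln1 (0.33). Pou4f1 and Calb1 shared Slc24a2 and Fgf12 among their nearest genes, at 0.16 and 0.20 for Pou4f1 and at 0.59 and 0.54 for Calb1, whose nearest genes thus lay farther off. Rxrg was nearest to Gpr75 (0.11), Ndel1 (0.14) and Mfsd2a (0.15), Prph to Rab32 (0.15), Plin2 (0.16) and Pros1 (0.17), and Runx1 to Ephb4 (0.12), Rhoj (0.12) and Efhd1 (0.13). The points compared are the same 12 arrays of 4 groups, and the response to ouabain is part of each distance.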

How the data were processed

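RNA of 12 pooled auditory nerve samples was measured on Affymetrix mouse arrays, from 50 ng of RNA by the study's methods or 100 ng by the labels. The deposited log2 values were computed by the authors in Expression Console with RMA, which corrects background, equalizes quantiles and summarizes probes. MAS5 detection calls were not used here. No tool version is given in the sources used here. Quantile normalization forces equal distributions, so each change is relative to the array as a whole.

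The 64 array control probe sets were removed. Gene symbols were those of the platform annotation. For 932 probe sets it lists more than 1 symbol and for 9160 no symbol, and these were fitted without being assigned to a gene. One linear model with a mean for each of the 4 groups was run in limma 3.58.1 (R 4.3.3), and shares of control are the fold changes in percent. Differences from the neuronal list, permutation tests and figures used Python 3.11.15. The fit and the permutation test were tested on simulated data. The number of arrays, 3 in a group, limits the precision.

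All 9 members are named, with every probe set, and from each gene list up to 3 called genes with the largest change at 7 days, or any that a small count singles out. For each called member the 3 nearest genes are named. The members and lists were chosen with earlier results of these data known. The alternatives were the methods' unpaired test, other fold thresholds, probe set averaging, a filter on dim probe sets, further normalization, other moderation, each day alone, a replicate block and leaving out arrays.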

Additional observations from a re-analysis of the deposited data

How the results depend on the processing

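No called marker changed direction under any alternative. The markers called lower numbered 4 to 5 at 3 days and 6 at 7 days when each array was left out, and those called higher stayed at 1 and 2. Averaging all probe sets of a gene left 0 markers called higher by limma at 3 days, where Prph was at 0.43 (adjusted p = 0.0037), and 0 at 7 days, where Runx1 was at 0.34 (adjusted p = 0.0327) and Prph at 0.19 (adjusted p = 0.162), since the dimmer probe sets of both genes changed little. The methods' unpaired test left 0 higher at 7 days with adjusted and 2 with unadjusted p-values, and 4 lower at each day with adjusted ones, and the cause was not tested. A fold change above 2 left 1 higher at 7 days. Over all genes, dropping the fold threshold gave 2678 lower and 2732 higher at 3 days and 2629 and 3121 at 7 days, and a fold above 2 gave 789 and 634, and 832 and 429, against 1467, 1367, 1492 and 1378. The unpaired test with adjusted p-values gave 801 higher at 7 days. The day difference was called lower for 178 and higher for 47 genes, with 86 to 302 lower and 17 to 73 higher when arrays were left out.

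Replicate numbers were not stated to mark the same animals. Deviations from the group means correlated between ouabain and control arrays of the same number with r between 0.07 and 0.38. Between arrays of different numbers r lay between -0.40 and 0.23. The same-number values were all positive, so shared animals are possible, but the ranges overlapped and not every same-number pair exceeded 0.1. Since no source states a pairing, the numbers were not taken as pairs. With the replicate number as a block, 5 markers were lower and 1 higher at 3 days and 6 lower and 2 higher at 7 days, and 116 genes were lower in the day difference.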

Other observations

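The pair of control arrays low in Calb1 was also low in other neuronal genes, which were picked after their values were seen and are given as values only. Syt1, a synaptic vesicle calcium sensor and the 1 gene of the neuronal list that did not pass, was at 9.54, 7.19 and 8.06 in 3-day ouabain arrays, against 9.31, 9.44 and 7.01 in controls, and at 8.30, 8.43 and 7.84 in 7-day ouabain arrays, against 10.66, 7.64 and 9.83 in controls. Its range over the 6 controls was 3.65 log2 units, larger than that of 99.8% of 12323 genes. Scg2, a granule protein, was at 5.75 in the third 3-day control and 6.34 in the second 7-day control, and between 7.61 and 8.47 in the other controls. Nrxn3, a presynaptic adhesion protein, was at 7.72 and 7.15 in those arrays and between 8.99 and 9.96 in the others, and Penk, the enkephalin precursor, at 8.21 and 8.84 against 10.05 to 10.72. Calb2, Pvalb and Lypd1 did not share the pattern, with ranges of 0.34, 0.32 and 0.37 over the 6 controls.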
